A study of Mus musculus with 28 samples.

Results

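The 6 genes described here encode neurotrophins and their receptors, and they were chosen by name out of 21938 protein-coding genes on chromosomes 1 to 19, X and Y. The ligands were *Bdnf*, *Ntf3* (neurotrophin-3) and *Ntf5* (neurotrophin-4, also called neurotrophin-4/5), and the receptors were *Ntrk2* (TrkB), *Ntrk3* (TrkC) and *Ngfr* (p75NTR). All 6 genes were found in the annotation. They have 43 distinct annotated transcript starts between them. For each start, the promoter window was taken from 2 kb upstream to 1 kb downstream, and every H3K4me3 peak and H3K27me3 island in the windows and along the gene bodies was read.

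Neurotrophins are secreted growth factors that act on neuronal survival, dendrites and synapses. BDNF and NT-4 bind TrkB, NT-3 binds mainly TrkC, and all neurotrophins and their precursors bind p75NTR. Much of the BDNF in the striatum is known to be carried there by axons from cortex and midbrain, and medium spiny neurons (MSNs), the principal neurons of the striatum, receive it through TrkB. *Bdnf* has several 5′ exons, each with its own promoter and each spliced to a shared coding exon, and transcription from some of these promoters follows neuronal activity. H3K4me3 is a histone mark of active or poised promoters, and H3K27me3 is a mark laid down by Polycomb repressive complex 2 over silent genes. Promoters that carry both are called bivalent.

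The series holds 28 CUT&RUN samples, from Neuro2a cells and from nuclei of mouse striatum, and 8 of the striatal samples enter the 4 lists used here. Mice were about 8 weeks old, of both sexes, and of C57BL/6J background. The A2a group was Sun1-sfGFP;A2a-cre and the D1 group was Sun1-sfGFP;Drd1-cre, so every animal carried the R26-CAG-LSL-Sun1-sfGFP allele, and Cre expressed in indirect pathway (A2a) or direct pathway (D1) MSNs switched on the nuclear tag by which nuclei were captured. Each list pools 2 replicates of a cell type and an antibody, H3K4me3 from Abcam or H3K27me3 from Active Motif. A pooled list gives 1 value per cell type, with no replicate error, and no difference between A2a and D1 below could be tested.

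The A2a list held 22551 H3K4me3 peaks and the D1 list 20080, with a median −log10 q of 60.1 and 48.8. The A2a list held 60191 H3K27me3 islands with 22091634 reads in all and the D1 list 45760 islands with 7878685 reads. Sequencing depth is unknown from the lists. The D1 H3K27me3 samples have A2a as their source in the labels and D1 as their title and cell type. In that list an island of 45.0 kb lay over *Adora2a*, the driver gene of the A2a line, where the A2a list had none, and the samples are taken as D1 here. The A2a H3K4me3 list held a peak inside *Xist*, with a −log10 q of 135.5, and the D1 list held none there. On chromosome Y the lists held 2 and 7 H3K4me3 peaks. Sex-linked signal thus differed between the pools, and its part in the values below was not tested.

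The MSN markers *Ppp1r1b*, *Bcl11b*, *Rgs9* and *Foxp1* each had H3K4me3 and no H3K27me3 at a transcript start in both lists. The interneuron markers *Chat*, *Sst*, *Pvalb*, *Npy* and *Vip* had an island and no peak, 5 of 5 in both lists. Markers of other cells differed between the lists. An H3K4me3 peak lay at 3 of 4 astrocyte markers in A2a and 1 of 4 in D1, at 4 of 4 microglial markers against 1 of 4, and at 4 of 5 oligodendrocyte markers against 3 of 5. Of all protein-coding genes, 62.0% had a peak in A2a and 59.4% in D1. Both marks met at a start of 3 of 4 astrocyte markers in A2a and 1 of 4 in D1. For microglial markers this was 3 of 4 against 0 of 4, and for oligodendrocyte markers 1 of 5 in each list. Of the cortical excitatory neuron markers, *Slc17a7* had a peak in both lists and *Tbr1* and *Neurod6* in D1 alone, and each of these genes had an island in both lists.

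The 8 stretches printed next are the bases directly before the transcript starts on which the results turn, with every CpG dinucleotide in capitals. They are read 5′ to 3′ on the strand of the gene from GRCm38 (mm10), the build of the lists. None overlaps an annotated exon of its gene. They were chosen so that starts with both marks (*Bdnf* starts 1 and 4, *Ngfr*), with H3K27me3 alone (*Bdnf* start 9, *Ntf3*, *Ntf5*) and with H3K4me3 alone (*Ntrk2* start 1, *Ntrk3* start 7) can be set side by side. A start has a mark here when a peak or island overlaps its promoter window. At *Bdnf* start 4 the peak overlapped the downstream end of the window by less than 200 bp in both lists. None of the 8 stretches itself overlaps an H3K4me3 peak in either list.
*Bdnf* before start 1, chr2:109674500-109674699, plus strand: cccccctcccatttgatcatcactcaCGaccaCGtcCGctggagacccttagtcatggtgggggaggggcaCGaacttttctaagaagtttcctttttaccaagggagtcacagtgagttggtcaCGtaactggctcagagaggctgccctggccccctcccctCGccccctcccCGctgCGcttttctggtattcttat
*Bdnf* before start 4, chr2:109692236-109692435, plus strand: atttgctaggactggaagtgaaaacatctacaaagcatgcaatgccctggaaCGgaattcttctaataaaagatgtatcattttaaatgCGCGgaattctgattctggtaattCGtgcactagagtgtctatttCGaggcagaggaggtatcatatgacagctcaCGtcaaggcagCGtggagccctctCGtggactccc
*Bdnf* before start 9, chr2:109709183-109709382, plus strand: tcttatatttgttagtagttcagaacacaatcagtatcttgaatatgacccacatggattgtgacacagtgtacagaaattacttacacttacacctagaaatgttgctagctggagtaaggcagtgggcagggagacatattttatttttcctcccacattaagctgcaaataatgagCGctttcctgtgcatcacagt
*Ntf3* before start 1, chr6:126166911-126167110, minus strand: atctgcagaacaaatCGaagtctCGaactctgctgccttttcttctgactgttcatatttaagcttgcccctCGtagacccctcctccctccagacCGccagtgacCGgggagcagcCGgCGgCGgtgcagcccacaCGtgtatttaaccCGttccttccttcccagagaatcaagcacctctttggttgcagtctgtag
*Ntf5* before start 1, chr7:45413495-45413694, plus strand: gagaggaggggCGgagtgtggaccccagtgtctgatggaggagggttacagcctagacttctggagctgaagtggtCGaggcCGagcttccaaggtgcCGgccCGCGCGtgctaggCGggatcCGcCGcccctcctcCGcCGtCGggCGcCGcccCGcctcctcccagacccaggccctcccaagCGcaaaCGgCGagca
*Ntrk2* before start 1, chr13:58806369-58806568, plus strand: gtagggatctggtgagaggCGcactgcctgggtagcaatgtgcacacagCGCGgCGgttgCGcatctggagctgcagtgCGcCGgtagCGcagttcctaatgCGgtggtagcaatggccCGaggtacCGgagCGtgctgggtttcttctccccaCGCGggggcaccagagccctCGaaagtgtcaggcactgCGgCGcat
*Ntrk3* before start 7, chr7:78578699-78578898, minus strand: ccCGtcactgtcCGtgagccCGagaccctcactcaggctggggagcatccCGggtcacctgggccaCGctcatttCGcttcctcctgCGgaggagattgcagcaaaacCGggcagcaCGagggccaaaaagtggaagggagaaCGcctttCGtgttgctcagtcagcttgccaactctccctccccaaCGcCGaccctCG
*Ngfr* before start 1, chr11:95587736-95587935, minus strand: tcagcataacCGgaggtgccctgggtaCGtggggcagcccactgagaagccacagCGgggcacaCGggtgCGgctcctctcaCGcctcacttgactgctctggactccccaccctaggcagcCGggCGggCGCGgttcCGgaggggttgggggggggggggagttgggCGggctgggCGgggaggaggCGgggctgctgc

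The *Bdnf* sequence before start 9 holds 1 CpG in 200 bases, against 8 before start 1 and 8 before start 4 of the same gene. The other stretches hold 10 (*Ntf3*), 19 (*Ntf5*), 17 (*Ntrk2*), 14 (*Ntrk3*) and 14 (*Ngfr*). *Ntf5* thus has the most CpG of the 8 and, as described below, no H3K4me3 peak in either list.

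The 6 genes fell into 3 states, and each was in the same state in both cell types. *Bdnf* and *Ngfr* had both marks at 1 transcript start or more. *Ntf3* and *Ntf5* had H3K27me3 only. *Ntrk2* and *Ntrk3* had H3K4me3 only. An H3K4me3 peak lay at a transcript start of 4 of 6 members in A2a, where 62.0% of all protein-coding genes had one, and of 4 of 6 in D1, where 59.4% had one. An H3K27me3 island lay at a start of 4 of 6 in A2a, against 24.2% of all genes, and of 4 of 6 in D1, against 17.4%. Both marks lay at 1 start in 2 of 6 members, against 10.9% of genes in A2a and 6.43% in D1.

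Set out by state in both lists together, H3K27me3 alone held 2 of 6 members and 7.75% of all genes. Both marks held 2 of 6 and 6.01%, and H3K4me3 alone held 2 of 6 and 48.7%. Of all genes, 88.1% were in the same state in both lists, so the 6 of 6 seen here is near that background. Counted by transcript start, a peak lay at 23 of 43 starts in A2a (53.4% of the 93513 distinct starts of protein-coding genes) and 23 of 43 in D1 (51.3%). An island lay at 15 of 43 starts in A2a (16.1%) and 15 of 43 in D1 (11.2%). The ligands and *Ngfr* account for all 15 starts with an island. Starts of 1 gene share peaks and islands and are not replicates.

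**Figure D1:**
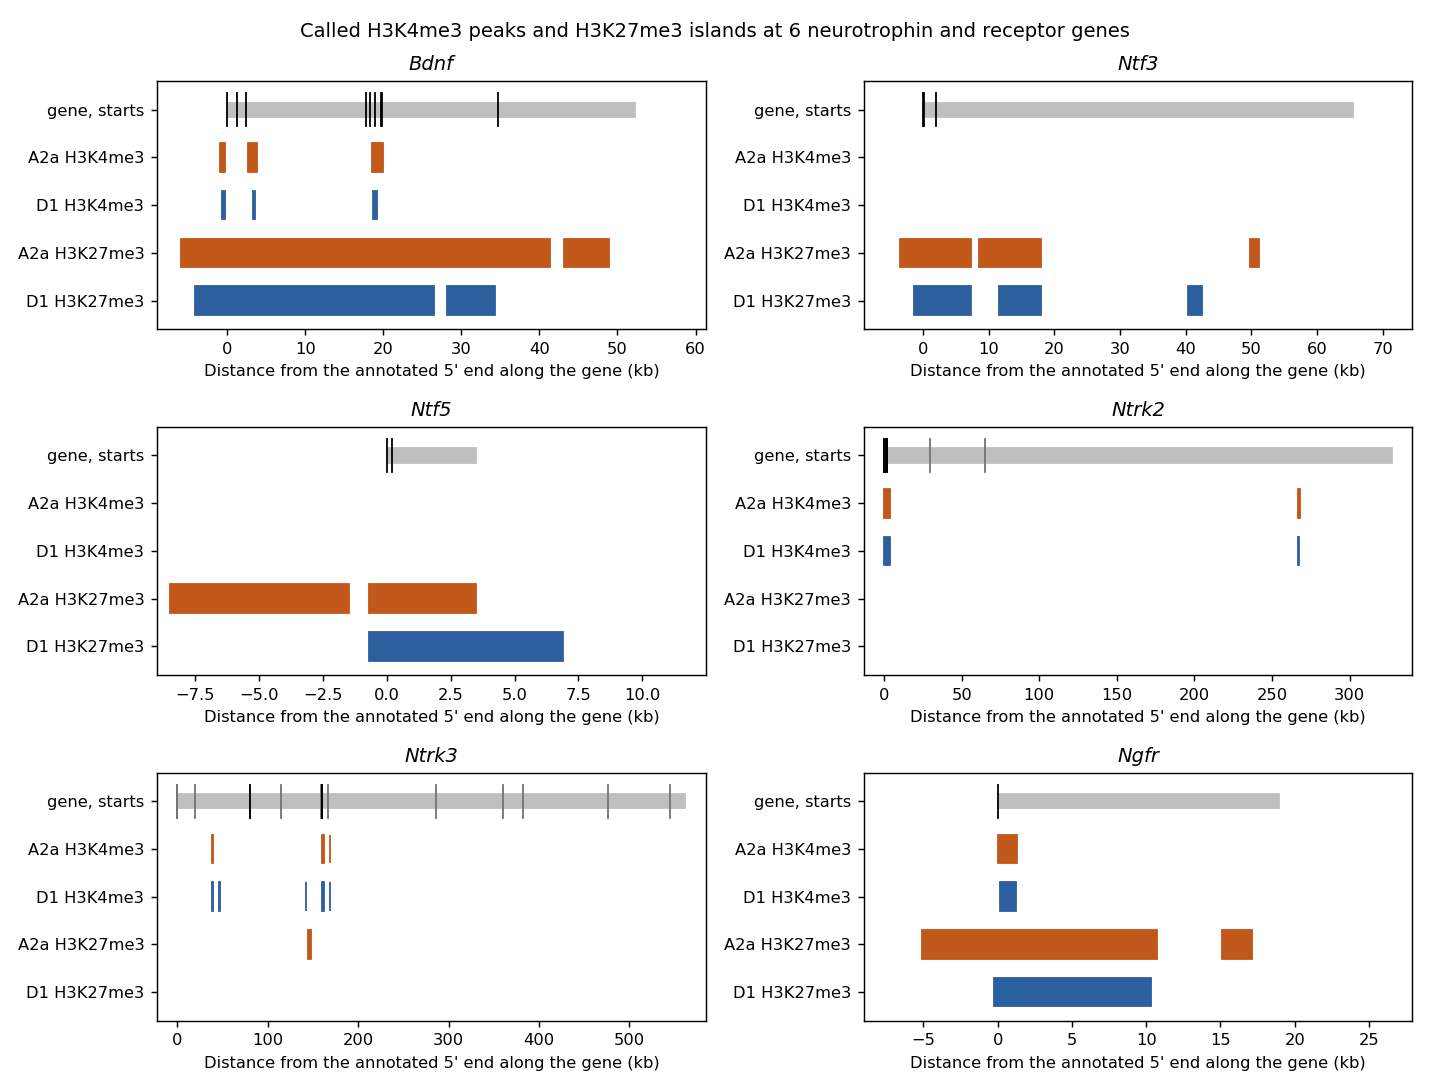
Called regions at the 6 genes, 1 panel per gene, with distance in kb from the annotated 5′ end along the gene on the x axis; grey bars are gene bodies, vertical ticks are distinct transcript starts (thin and grey where no transcript from that start codes for protein), orange bars are A2a and blue bars D1 regions. Islands cover *Bdnf*, *Ngfr*, *Ntf5* and part of *Ntf3*, while *Ntrk2* has none and *Ntrk3* a single A2a island of 2.8 kb.

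*Bdnf* (ENSMUSG00000048482.14) lies on the plus strand at chr2:109674700-109727007 and has 11 coding transcripts from 9 starts. These fall in a group of 3 within 2.33 kb of the 5′ end, a group of 5 between 17.7 and 19.8 kb, and start 9 at 34.7 kb. Both lists held 3 H3K4me3 peaks at the gene, at the same places. The windows of starts 1 to 8 held these peaks, and start 9 had no peak in either list.

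The peak before start 1 was 597 bp long in A2a, with its summit at -401 bp, and 359 bp long in D1, with its summit at -634 bp. Its fold enrichment, the height at the summit over the local background, was 4.504 and 2.92, and its −log10 q 14.8 and 4.05. As a percentile, the share of peaks in the same list with a −log10 q no higher, this was 26.7 (A2a) and 2.97 (D1).

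The second peak, in the intron after start 3, was 1124 bp long in A2a and 287 bp in D1, and its summits were 8 bp apart. Its fold enrichment was 3.84 and 2.56 and its −log10 q 10.5 and 2.58, again lower in D1. The D1 peak thus lay just above the threshold of q 0.01, at percentile 0.214 of its list. The third peak overlapped the windows of the group of 5 starts, with a length of 1333 bp in A2a and 619 bp in D1. The A2a peak itself held starts 6 to 8 and the D1 peak only start 6, and starts 4 and 5 lay before both. Here the D1 peak stood higher, at 4.06-fold and a −log10 q of 9.003, than the A2a peak, at 3.75-fold and 7.90. The D1 summit was 3 bp before start 6.

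Within *Bdnf*, the strongest of the 3 peaks by −log10 q was therefore the one at start 1 in A2a and the one at starts 4 to 8 in D1. In A2a the percentiles of the peaks, in order along the gene, were 26.7, 19.8 and 14.0. In D1 they were 2.97, 0.214 and 18.3. All 3 peaks were weak for their lists in both cell types, with no percentile by −log10 q above that of 26.7 at start 1 in A2a. Under a stricter minimum −log10 q of 5, D1 lost the peaks at starts 1 to 3 and held the one at starts 4 to 8.

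H3K27me3 covered the gene more fully than H3K4me3. In A2a an island of 47.2 kb, at chr2:109668801-109716000, held 7029 reads (95% counting interval 6866 to 7195) and took in 9 of 9 starts. A further island of 5.8 kb with 346 reads followed it. In D1 the island at chr2:109670601-109701200 was 30.6 kb long, held 2841 reads (2737 to 2947) and took in starts 1 to 8. A separate D1 island of 6.2 kb with 232 reads lay in the window of start 9. By reads the long island stood at percentile 99.83 of the A2a islands and 99.74 of the D1 islands. Islands covered 90.0% of the gene body in A2a and 62.5% in D1, the difference lying mainly in its 3′ part. These shares were at or above those of 96.4% and 96.3% of all protein-coding genes. Intervals here cover counting error only, since each list pools its replicates and holds no replicate spread.

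All 3 H3K4me3 peaks of *Bdnf* lay inside islands in both lists. The marks were read in separate libraries of pooled nuclei, and whether they sit on the same nucleosome, allele or nucleus was not tested. Reads in islands that touch the locus came to 7375 in A2a and 3073 in D1. Scaled to the reads in all islands of each list, this was a ratio of A2a to D1 of 0.856 (95% counting interval 0.821 to 0.893). Among 4552 genes with islands in both lists the median ratio was 1.01 (interquartile range 0.782 to 1.44), and 65.7% of them had a larger ratio than *Bdnf*. The ratio depends on the scaling. It was 1.03 when the median over islands that overlap 1 to 1 between the lists was set to 1, and 2.40 on the unscaled reads, so no direction is given for it.

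The annotation has an antisense gene, *Gm45346*, across start 1 and start 2 of *Bdnf*, and a further non-coding gene, *Gm20638*, that ends before start 1. Both had both marks at a start in both lists. Peaks and islands carry no strand, so the H3K4me3 before start 1 cannot be told apart from a mark of *Gm20638*. The second peak, after start 3, lies upstream of the 5′ end of *Gm45346* at 109676591. That peak cannot be told apart from a mark of *Gm45346*. The motif TCACGTCA, a variant of the cAMP response element that is known from a *Bdnf* promoter bound by CREB, was searched on both strands from 250 bases before to 50 after each start. At *Bdnf* it lay before start 4, with its first base at -38, where the printed stretch reads tcaCGtca. It was found at 410 of 93513 starts (0.438%). The full palindrome TGACGTCA was found at 1818 starts (1.94%) and at none of the members' starts. TCACGTCA was also found at *Ntrk2* start 5, at -60, and at *Ntrk3* start 6, at -135. These are matches of letters only.

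*Ntf3* (ENSMUSG00000049107.13) lies on the minus strand at chr6:126101412-126166910, with 3 coding transcripts from 3 starts within 1.95 kb. It had no H3K4me3 peak in either list, and 347.6 kb (A2a) and 347.7 kb (D1) separated it from the nearest one. The island over its starts was 10.8 kb long in A2a, with 1486 reads (1411 to 1564) or 137.6 reads per kb, at percentile 97.2 by reads. In D1 it was 8.6 kb long, with 554 reads (509 to 602) or 64.4 reads per kb, at percentile 96.4. Both islands ended at the same position inside the gene, 7.31 kb from the 5′ end, and the A2a island reached further upstream, to position 126170400 against 126168200. Smaller islands lay further into the gene, of 9.4 kb (599 reads) and 1.4 kb (98 reads) in A2a and of 6.4 kb (209 reads) and 2.2 kb (71 reads) in D1. In all, 27.6% of the gene body was covered in A2a and 24.3% in D1. H3K27me3 at *Ntf3* was thus dense around the starts and sparse in the rest of the gene in both lists.

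*Ntf5* (ENSMUSG00000074121.3), on the plus strand at chr7:45413695-45417179, is the shortest of the 6 genes at 3.485 kb. It had no H3K4me3 peak, and islands covered 100% of the gene body in both lists. In A2a its island spanned positions 45413001 to 45417200, a length of 4.2 kb, with 530 reads (486 to 577) or 126 reads per kb. The D1 island began at the same base and ran to 45420600, over 7.6 kb with 285 reads (253 to 320) or 37.5 reads per kb. By reads per kb the A2a island stood at percentile 99.0 and the D1 island at 52.2. Upstream, the start of the potassium channel gene *Kcna7* had an island in both lists. In A2a that island, of 7 kb with 583 reads, ended at -1.495 kb from the 5′ end of *Ntf5*, inside its windows. In D1 the island at *Kcna7* lay outside the windows of *Ntf5*, which held only the one over the gene.

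*Ntf5* lies in a block of genes with H3K27me3 only, between *Kcna7* and *Lhb*, the luteinizing hormone beta subunit gene. On either side of the block, *Snrnp70* and, beyond *Lhb*, *Ruvbl2* and *Gys1* had H3K4me3 only, in both lists. The nearest H3K4me3 peak lay 16.4 kb from *Ntf5* in A2a and 16.6 kb in D1. The ratio of scaled island reads of A2a to D1 was 0.933 (0.862 to 1.01) at *Ntf3* and 1.39 (1.22 to 1.59) at *Ntf5*. Larger ratios than these were found at 57.4% and 26.9% of genes with islands in both lists. With the median over 1 to 1 islands set to 1, the *Ntf3* ratio was 1.13, on the other side of 1, and no direction is given for it either. The *Ntf5* ratio includes the A2a island over *Kcna7* and no D1 island there, so no direction is given for *Ntf5*. It was 1.30 when reads were counted by the share of each island inside the locus.

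*Ntrk2* (ENSMUSG00000055254.15), the receptor of BDNF and NT-4, spans 327.4 kb on the plus strand at chr13:58806569-59133970. Of its 9 starts, 7 lie within 2.12 kb of the 5′ end, and 1 H3K4me3 peak overlapped the windows of all 7. It ran from 58806644 to 58810514 in A2a, over 3871 bp, and from 58806623 to 58810511 in D1, over 3889 bp. In length it stood at percentiles 99.8 and 99.9 of the lists. It was broad but low, with 3.36-fold enrichment (percentile 6.85) for A2a and 2.998-fold (percentile 4.10) for D1. Its −log10 q was 108.5 and 50.3, at percentiles 64.8 and 50.9. The remaining starts, at 29.2 and 65.2 kb, belong to transcripts with no coding sequence and had no peak. Another annotated gene, *C630044B11Rik*, starts inside *Ntrk2* on the same strand, at 58812153. The end of the promoter peak lay in its window in both lists, so a part of that gene in the mark cannot be told apart.

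A further H3K4me3 peak lay in an intron of *Ntrk2* at 267.4 kb from the 5′ end in A2a and 267.3 kb in D1. The A2a summit was 202191 bp from the nearest start of *Ntrk2* itself. It was the reverse of the promoter peak in shape. Its length was 834 bp in A2a and 633 bp in D1, and its fold enrichment was 8.47 and 8.70, at percentiles 72.9 and 79.7. Its −log10 q was 27.6 and 28.6. The summits were 9 bp apart. No annotated start lies within it, although starts of other genes are closer than those of *Ntrk2*. The non-coding gene *Gm34245* starts at 59078296 and the antisense gene *4930415C11Rik*, whose span holds the peak, at 59084093, past the A2a peak end at 59074319. Neither had a mark in its own promoter window. The 200 bases around the A2a summit hold 7 CpG and are printed because the peak lay at almost the same bases in both lists.
*Ntrk2* intronic summit, chr13:59073826-59074025, plus strand: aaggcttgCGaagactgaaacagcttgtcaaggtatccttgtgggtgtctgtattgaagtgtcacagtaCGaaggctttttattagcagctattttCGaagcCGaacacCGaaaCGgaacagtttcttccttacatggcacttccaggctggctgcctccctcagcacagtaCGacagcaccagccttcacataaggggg

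No H3K27me3 island lay in *Ntrk2* in either list. The nearest was 74.4 kb from the gene in A2a and 117.0 kb in D1. Of all protein-coding genes, 72.3% had no island in the gene body in A2a and 79.0% in D1.

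*Ntrk3* (ENSMUSG00000059146.12), the receptor of NT-3, is the longest of the 6 genes, at 562.1 kb on the minus strand of chr7:78175959-78738012, with 20 transcripts from 19 starts. Its H3K4me3 was not at the annotated 5′ end. The main peak ran from 78575532 to 78578364 in A2a (2833 bp) and from 78575616 to 78578364 in D1 (2749 bp), 159.6 kb to 162.5 kb into the gene. It overlapped the windows of starts 7 to 13, among them 5 of the 6 coding starts. An antisense gene, *Gm9885*, and a sense intronic gene, *Gm39038*, start beside this peak and had H3K4me3 in their own windows in both lists, and since peaks carry no strand, the mark cannot be told apart from theirs. None of the 6 starts upstream had a peak, the coding start 5 at 80.3 kb included. As at *Ntrk2*, the peak was long and low. Its height was 3.94-fold and 3.47-fold over background, at percentiles 14.3 and 8.77, and its −log10 q was 109.4 and 50.9, at percentiles 65.2 and 51.1. In length it stood at percentiles 97.1 and 97.3.

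Smaller H3K4me3 peaks lay in introns of *Ntrk3*. One at 168.8 kb was 621 bp long in A2a and 633 bp in D1, with 5.72-fold and 4.17-fold enrichment and a −log10 q of 16.7 and 8.76. One at 39 kb was weak in both lists, with a −log10 q of 4.37 and 4.74. The D1 list held 2 more, at 142.0 and 46.6 kb, with a −log10 q of 4.07 and 5.42, and the nearest A2a peaks to them were 17509 and 7424 bp away. The only H3K27me3 at *Ntrk3* was an A2a island of 2.8 kb with 159 reads (135 to 186) at 145 to 148 kb, at percentile 31.0 by reads and outside the promoter windows. In D1 the nearest island was 115.4 kb from the gene.

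*Ngfr* (ENSMUSG00000000120.6), which encodes p75NTR, lies on the minus strand at chr11:95568818-95587735 and has 1 transcript. Its H3K4me3 peak lay directly downstream of the start, with the summit in an intron, and was 1295 bp long in A2a and 1120 bp in D1. Its height was 9.38-fold over background in A2a and 6.07-fold in D1, at percentiles 82.0 and 46.3 by fold enrichment. Its −log10 q was 45.4 and 14.7, at percentiles 45.3 and 28.5. The island at the start was 15.8 kb long with 1665 reads (1586 to 1747) in A2a, at percentile 97.7, and 10.6 kb long with 597 reads (550 to 647) in D1, at percentile 96.8. Inside the gene the islands ended 10.7 and 10.3 kb from the start. Upstream, the A2a island reached to -5.07 kb and the D1 island to -0.265 kb. Islands covered 67.3% of the gene body in A2a and 54.6% in D1. The ratio of scaled island reads was 1.07 (0.971 to 1.17), and it was 0.873, on the other side of 1, when reads were counted by the share of each island inside the locus.

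*Ngfr* thus had the highest fold enrichment of H3K4me3 at a transcript start among the 6 genes in both lists, inside an H3K27me3 island. Its percentile by −log10 q was 16.7 points higher in A2a than in D1. The gap was 14.0 points at *Ntrk2* and 14.1 at *Ntrk3*. At *Bdnf* the strongest peaks lay at different starts in A2a and D1, so no gap is given. Over 13000 genes with a promoter peak in both lists the median gap was 3.96 points (interquartile range -2.71 to 10.6), and 9.89% of them had a larger gap than *Ngfr*. The glial markers given above went the same way, with more H3K4me3 peaks in A2a at astrocyte and microglial genes. The cortical excitatory markers *Tbr1* and *Neurod6* went the other way, as did the *Bdnf* peak at starts 4 to 8. The part of either set in the differences at *Ngfr* and *Bdnf* was not tested.

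**Figure D2:**
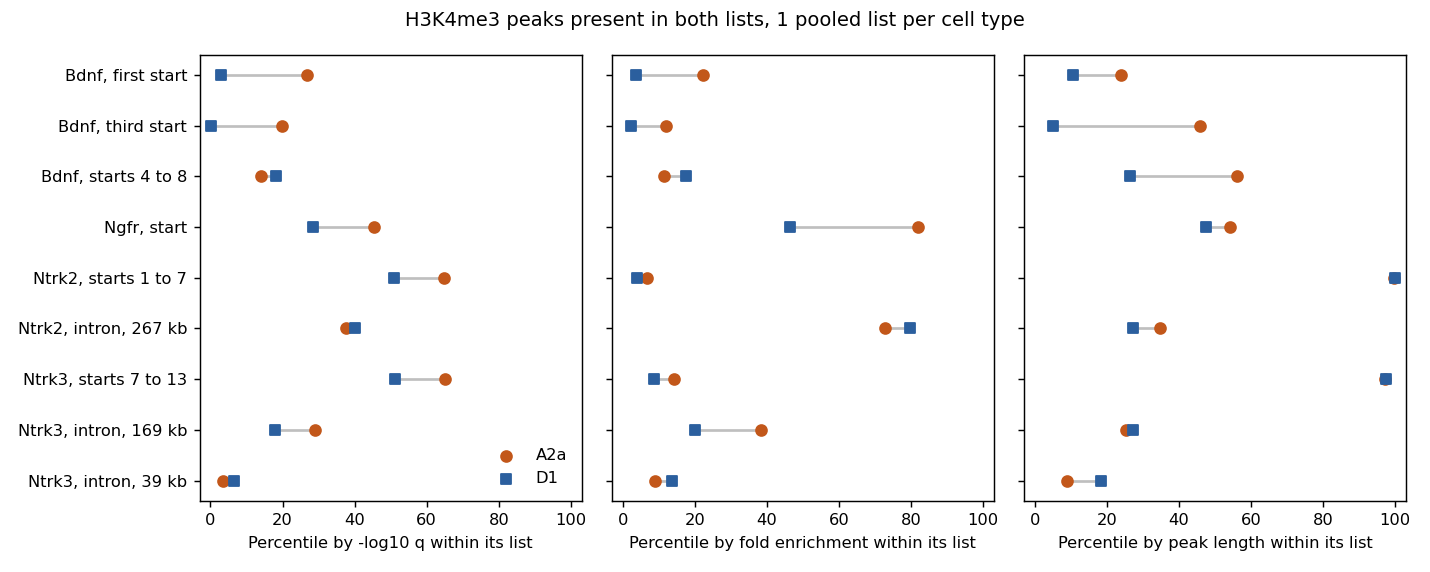
The 9 H3K4me3 peaks that the A2a (orange circles) and D1 (blue squares) lists share at *Bdnf*, *Ngfr*, *Ntrk2* and *Ntrk3*, as percentiles within the own list by −log10 q, fold enrichment and peak length; each symbol is 1 pooled list, with no error bar. The promoter peaks of *Ntrk2* and *Ntrk3* are at the top in length and near the bottom in fold enrichment, and *Bdnf* starts 4 to 8 are the one promoter peak at which D1 is higher by −log10 q.

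**Figure D3:**
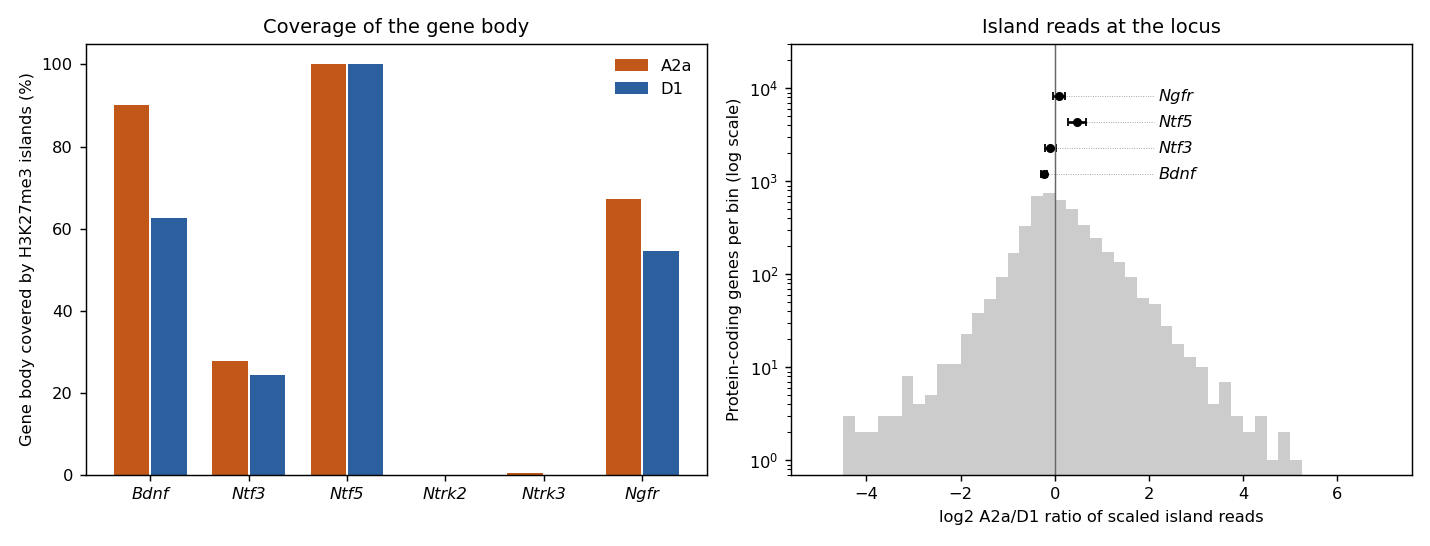
Left, share of each gene body covered by H3K27me3 islands (%) in A2a (orange) and D1 (blue). Right, log2 ratio of A2a to D1 island reads, each scaled to the reads in all islands of its list, for the 4 members with islands in both lists (points with 95% counting intervals, placed at arbitrary heights) over a histogram of 4552 genes with islands in both lists (log scale on the y axis); the points lie between 0.856 (*Bdnf*) and 1.39 (*Ntf5*) as ratios, inside the bulk of the histogram.

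CpG content was higher at most starts with H3K4me3 than at those without. It was taken as observed over expected CpG in the 500 bases on either side of a start. The 23 starts of the 6 genes with a peak in both lists had a median of 0.685 (range 0.484 to 0.882), and the 20 without a peak had a median of 0.222 (0.0453 to 0.730). Over all protein-coding genes the medians were 0.725 and 0.222, so the members were like other genes in this. Among the starts without a peak, the 6 with an island in their windows in both lists had a median of 0.467 and the 14 with neither mark 0.179. Over all genes these were 0.327 and 0.214. Neighbouring starts share sequence and are not independent, and no test was made.

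Individual starts stood away from these medians. *Ntf3* start 3 reached 0.730 with no peak in either list, and *Ntf5* starts 1 and 2 had 0.511 and 0.534. These were higher than *Bdnf* starts 4 and 8 (0.496 and 0.484), which had peaks in their windows. *Bdnf* start 9, at 0.199, was unlike the other 8 starts of its gene, at 0.484 to 0.685. At *Ntrk3* the split followed position in the gene. Starts 7 to 13, the ones with H3K4me3, ran from 0.736 to 0.882, and the other 12 starts from 0.0453 to 0.274. The stretch before *Ntrk3* start 7 printed above is from the first group.

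**Figure D4:**
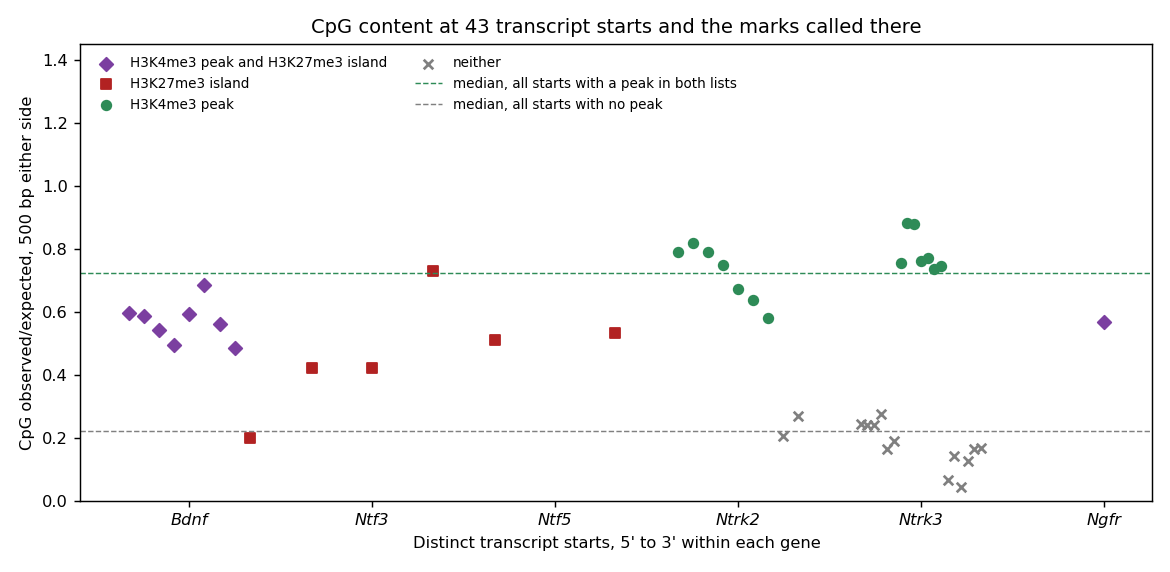
Observed over expected CpG in the 1001 bases around each of the 43 distinct transcript starts (y axis), ordered 5′ to 3′ within each gene (x axis); symbols give the marks called at the start, which are the same in both lists, and dashed lines are the medians over all starts with (green) and without (grey) a peak. The starts of *Ntf3* and *Ntf5* carry islands alone at ratios of 0.421 to 0.730, above the grey line, and the *Ntrk3* starts fall in a high and a low group.

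The protein-coding genes nearest to each member were found over 4 values, the percentile of the strongest promoter peak and the share of the gene body in islands in A2a and in D1, by Euclidean distance. For *Bdnf* they were *Sox3* (10.5), *Zfp423* (10.8) and *Sall3* (11.2), all of them genes of transcription factors. *Bdnf* had the largest distance to its nearest gene of the 6 members. For *Ngfr* they were *Slc1a3* (4.05), a glutamate transporter gene and one of the astrocyte markers, *Gdf10* (4.94) and *Nrp2* (5.87). For *Ntf3* they were *Treml4* (1.15), *Trim38* (1.46) and *Wdr72* (2.02). *Ntrk2* had *Mrps10* (0.318), *Zfp280c* (0.499) and *Ip6k2* (0.627) next to it. *Ntrk3* had *Zfp280c* (0.555), *Mrps10* (0.616) and, in the third place, *Ntrk2* itself (0.657). At *Ntf5*, 238 genes tied at a distance of 0, since they too had no peak and full coverage, and none is named.

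The wider pathway was read as a list of 49 genes that process the ligands, partner the receptors or signal from them. An H3K4me3 peak lay at a start of 49 of 49 in each list, against the 62.0% and 59.4% of all genes given above, and an H3K27me3 island at 7 of 49 in each, against 24.2% and 17.4%. In both lists, 41 of 49 had H3K4me3 only, the state of *Ntrk2* and *Ntrk3*, against 48.7% of all genes. None had H3K27me3 only, the state of *Ntf3* and *Ntf5*, against 7.75% of all genes.

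By role, 7 of 7 ligand-processing genes had H3K4me3, of which *Pcsk1* and *Pcsk6*, which encode proprotein convertases, had both marks in both lists, and *Mmp9*, a metalloproteinase gene, had them at different starts. The sortilin family, sorting receptors of which some pair with p75NTR, had H3K4me3 only, 5 of 5 in both lists. Of 9 receptor partners, 9 had H3K4me3. *Islr2* had an island of 6.6 kb in A2a and none in D1, and *Traf6*, a signalling adaptor gene, had one of 2.8 kb in D1 and none in A2a. All 28 adaptors and enzymes had H3K4me3 in both lists, and 3 of them, *Gab1*, *Plcg2* and *Shc4*, also had an island at a start. In *Shc4* both marks met at 1 start in A2a and lay at different starts in D1. Of the 49 genes, 46 were in the same state in both lists, near the share of 88.1% over all genes.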

How the data were processed

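CUT&RUN was carried out by the authors on bead-bound striatal nuclei. Paired reads were mapped to mm10 with bowtie2 2.1.0 in local mode and kept at a mapping quality of at least 20 (samtools 0.1.19), without duplicates and with inserts of 150 to 500 bp. For H3K4me3, the deposited MACS2 peaks (q 0.01) give a fold enrichment, a linear ratio of the summit to local background, and p-values and q-values on the −log10 scale. Their score column, in the deposited lists 10 times −log10 q, was not used. For H3K27me3, the deposited SICER islands (window 200 bp, gap 600 bp, FDR 0.01) give counts of reads per island, unnormalized. The control given to SICER is not named in the sources used here. Replicates were pooled before peaks and islands were called, so signal at uncalled sites and replicate spread were not analysed here.

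From these lists, peaks and islands were joined to the starts and bodies of genes in GENCODE vM21 with an overlap of at least 1 bp, in Python 3.11.15 with numpy 2.4.6 and scipy 1.17.1. Percentiles are shares of a list with a value no higher. A count of reads was given an exact 95% Poisson interval, and the ratio of counts, scaled to the reads in all islands of a list, an interval for counting error. The joins were tested on simulated lists. Sequences were read from GRCm38.p6. Genes in the text are the 6 members, the 3 nearest to each over the 4 values, and genes of the pathway list with an island at a start. The members, gene lists and motifs were chosen with earlier results of these data known. Alternatives in window, transcripts, overlap, thresholds, gene extent and scaling are given at the end. Some genes of the marker and pathway lists are not reported here.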

Additional observations from a re-analysis of the deposited data

How the results depend on the processing

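Of the alternative values of the counts of members and starts with each mark, 58 were within 1.5 times the main value and 4 were not. With the annotated 5′ end alone in place of all starts, H3K4me3 lay at 3 of 6 in A2a and 3 of 6 in D1, since *Ntrk3* has no peak there, and H3K27me3 at 4 of 6 in A2a and 4 of 6 in D1. The start count falls there because fewer starts are read. Within 500 bp of a start, peaks lay at 21 starts in A2a and 19 in D1. With an overlap of at least 200 bp they lay at 22 starts in A2a and 21 in D1. *Bdnf* start 4 lost its peak there in both lists and *Bdnf* start 3 in D1. Among the settings tried, the direction of the ratio of island reads turned at 3 of the 4 genes. At *Bdnf* it turned from 0.856 to 2.40 on raw reads and to 1.03 with 1 to 1 islands set to 1, and at *Ntf3* from 0.933 to 2.62 and 1.13. At *Ngfr* it turned from 1.07 to 0.873 with reads split by share. At *Ntf5* it stayed above 1 in the settings tried, from 1.30 to 3.91. Each of them counts part or all of the A2a island over *Kcna7* and no D1 island there. The island over *Ntf5* itself held 530 reads in A2a and 285 in D1, and a scaled ratio for it alone was not taken. With islands within 5 kb merged, coverage of *Ngfr* in A2a was 90.6% in place of 67.3%. No paired analysis was possible because each list pools its replicates.

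Lists hold only what passed the callers, so a gene without a peak or island is one where none was detectable at this depth. The A2a and D1 lists differ in number of regions and in read total, 2.804 times as many island reads in A2a, and depth per library is unknown. Where a caller splits a broad island at a gap or fuses it across one, its length and reads change.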
